A study of Mus musculus with 8 samples.

Results

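The TGF-beta ligands, receptors and Smads described here are 10 genes: the ligands Tgfb1 and Tgfb2, the receptors Tgfbr1 and Tgfbr2, Smad2, Smad3, Smad4 and Smad7, and the nuclear corepressors Ski and Skil. They were chosen from earlier results of the same arrays, so their differences between the groups are given as a description, with no test. Through their RefSeq accessions they took in 21 of 56605 probes, and they are 10 of the 22911 genes with a matched probe. The study asked which genes are altered in photoreceptor cells of mice that lack Lpcat1, an acyltransferase that makes saturated phosphatidylcholine. Photoreceptor cells of mice at postnatal day 8 were compared between 4 samples labelled Lpcat1 KO and 4 labelled Lpcat1 HZ, so the controls are heterozygous and not wildtype. Cells had been dissociated from the retina and collected as CD73-positive cells on a magnetic separator. The labels give the strain as C57BL/6; the knockout line came from C57BL6/N and had been crossed with C57BL6/J, and the mice used were not homozygous for the rd8 mutation of Crb1. Each sample was hybridised to 1 array of the same slide, named here by group and replicate number (HZ1 to HZ4, KO1 to KO4). A value is the log2 signal of a probe minus the 75th percentile of its array, called the normalized signal, and a difference is the KO mean minus the HZ mean with its standard error from limma.

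TGF-beta is secreted in a latent complex and, once freed, binds a type II receptor that phosphorylates a type I receptor. The type I receptor phosphorylates Smad2 and Smad3, which join Smad4, enter the nucleus and regulate target genes, while Smad7 blocks the receptor and Ski and Skil hold the Smad complex in check. In the retina the pathway is known for its part in glia, vessels and the homeostatic state of microglia.

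Lpcat1 itself was read by 1 probe, at -0.81, -0.95, -1.02 and -1.17 on HZ1 to HZ4 and at -0.97, -1.16, -1.11 and -0.85 on KO1 to KO4. These values overlapped, so the probe did not separate the labels, and where it lies relative to the deleted part is not given in the sources used here. Rpe65, a marker of the adjoining pigment epithelium, fell by 2.38, with every KO-labelled array below every HZ-labelled array, which is the direction the authors give for Rpe65 by qPCR of such cells. Whether the qPCR used the same samples is not known. Groups are therefore named by their labels throughout. The KO-labelled arrays lay in 1 row of the slide and the HZ-labelled ones in the other, so slide row and genotype cannot be told apart. The share of probes well above background ran from 59.5% to 64.6% by array, 0 spots were saturated, and HZ4 had 458 non-uniform spots against 2 to 25 on the others. The label photoreceptor was checked against 13 rod markers, which were all measured. The most abundant, Nrl, the transcription factor of rod fate, lay between 6.94 and 7.30 on the 8 arrays.

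Of the 10 members, 9 had a probe that stood well above background on 4 or more arrays, while Tgfb1 did not. The reported probe, the brightest tested one of a gene, was higher on the KO-labelled arrays for 5 members and lower for 4, with a median difference of 0.066 against 0.029 over the 14848 genes tested. The looser of the authors' limits, an adjusted p under 0.5, can leave many false calls. The smallest limma adjusted p over all tested probes was 0.158. With a fold above 1.5 and an adjusted p below 0.5, limma called 0 of the 9 members in either direction, where 1.13% of all tested genes were called lower and 0.33% higher. At a fold over 1.2 and an adjusted p under 0.05 it called 0 members and 0% of the genes. At an unadjusted p under 0.05 it took in 1 member, Skil, and 9.3% of the genes. The groups did not overlap for 2 members, Skil and Smad7, and for 7.99% of the genes. Since the members were chosen with this contrast in view, nothing is read from these counts.

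**Figure D1:**
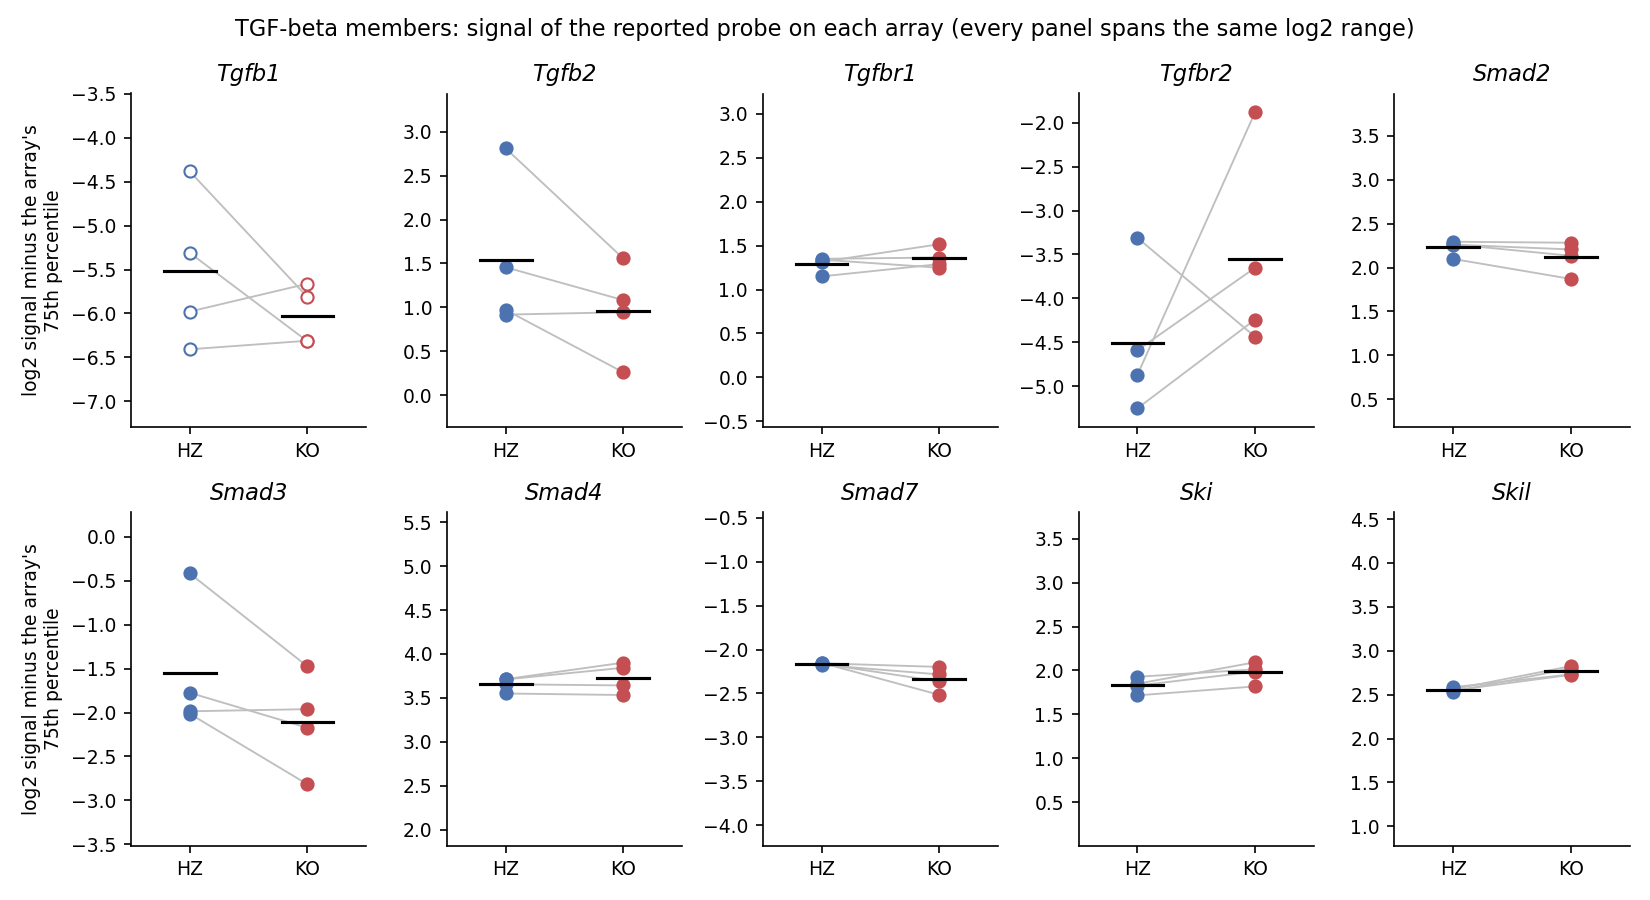
Normalized log2 signal of the reported probe of each member on the 4 HZ arrays (blue) and the 4 KO arrays (red), with black bars for group means and grey lines between arrays of the same replicate number. Every panel spans the same log2 range, so that the wide spread of Tgfb2, Tgfbr2 and Smad3 stands beside the narrow one of Skil; open circles mark Tgfb1, which was not tested.

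The ligand Tgfb2 was measured on all 8 arrays, at 0.92, 2.81, 1.46 and 0.97 on HZ1 to HZ4 and at 0.94, 1.56, 1.08 and 0.26 on KO1 to KO4. HZ2 was the highest array and KO4 the lowest, and the groups overlapped. The difference was -0.58 (standard error 0.45), and without HZ2 it was -0.15. A dimmer Tgfb2 probe had the same high and low arrays, from 1.41 on HZ2 to -1.31 on KO4, and differed by -0.61 (standard error 0.49). Of the 4 pairs of arrays that share a replicate number, 1 was higher on the KO-labelled array with either probe.

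Tgfb1, the ligand best known from immune cells and platelets, was read by 2 probes. The brighter of them lay at -6.41, -5.98, -5.31 and -4.38 on HZ1 to HZ4 and at -6.31, -5.66, -6.32 and -5.81 on KO1 to KO4. It stood well above background on 2 HZ-labelled arrays and on 0 KO-labelled ones, and the groups overlapped. No size is given for its difference. The other probe was not well above background on any array.

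The promoter of Tgfb2 is shown because Tgfb2 and Smad3 ran together across the arrays, as described with Smad3. Promoters on a chromosome that was set aside were not used for the members or for other pathway genes. From RefSeq's table of GRCm38.p6, promoters of 6 of the 10 members (Tgfb1, Tgfb2, Tgfbr1, Tgfbr2, Smad3 and Ski) were taken, 7 in all. They run from 250 bases before to 50 after the start of transcription. They were searched on both strands for CAGAC, the core of the Smad-binding element (GTCTG on the other strand), which 49.6% of all 32841 promoters in the table hold. The TATA box, spelled TATAAA, was found in 13.6% of them, and the E-box, spelled CACGTG, in 7.15%. The palindrome of the Smad-binding element, spelled GTCTAGAC, was found in 0.213%. The palindrome does not contain the core as spelled here, so the motifs do not overlap. The Tgfb2 promoter, chr1:186705940-186706239 on the minus strand, held CAGAC at 2 places, starting at positions -221 and -204 from the start site, CACGTG at -51 and TATAAA at -31. Capitals mark these matches, which are a description of the letters and not of a factor's binding.
Tgfb2: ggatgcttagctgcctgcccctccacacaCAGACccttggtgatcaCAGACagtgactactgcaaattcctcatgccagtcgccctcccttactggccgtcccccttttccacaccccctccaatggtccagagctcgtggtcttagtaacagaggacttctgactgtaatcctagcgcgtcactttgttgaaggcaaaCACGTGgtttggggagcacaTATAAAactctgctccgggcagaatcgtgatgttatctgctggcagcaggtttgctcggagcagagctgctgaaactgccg

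The type II receptor Tgfbr2, which binds the ligand, had the widest spread of the members. Its 1 probe lay at -4.87, -4.59, -5.25 and -3.31 on HZ1 to HZ4 and at -1.88, -3.65, -4.24 and -4.44 on KO1 to KO4. KO1 was the highest array, HZ4 came next, and the groups overlapped. The difference was 0.95 (standard error 0.62), 0.40 without KO1 and 0.62 with normexp background correction. The signal was higher on the KO-labelled array in 3 of 4 pairs with the same number, by 2.99, 0.94 and 1.01, and the pair of number 4 differed by -1.13. The SD within groups was 1.02, at percentile 98.6 of the tested genes, whose median was 0.17.

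The genes whose normalized signal was most like that of Tgfbr2 over the 8 arrays, among 14847 others, were Adgre1 (Pearson's r 0.963, Spearman's rho 0.976), Cyba (0.963, 0.881) and Csf1r (0.957, 0.952). Adgre1 encodes the macrophage surface protein F4/80, Cyba a subunit of the phagocyte NADPH oxidase, and Csf1r the receptor for the growth factor of microglia and macrophages. Without KO1 and HZ4, the arrays farthest from the median of Tgfbr2, r was 0.959, 0.948 and 0.909. Adgre1 lay at -4.40, -4.09, -4.45 and -3.08 on HZ1 to HZ4 and at -2.60, -3.23, -3.87 and -3.72 on KO1 to KO4. The same 2 arrays, KO1 and HZ4, were thus the highest for Adgre1.

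All 13 microglia markers, a list that holds Csf1r, were tested, and 12 were higher on the KO-labelled arrays. Of these 1 was called, Tmem119, but its probe stood well above background on 1 array of HZ and 3 of KO, so it passed the filter mainly through KO, and no size is given and nothing read from the call. The score of the list, the mean deviation of its genes from their own means, was -0.71, -0.39, -0.56 and 0.38 on HZ1 to HZ4 and 0.76, 0.39, 0.03 and 0.11 on KO1 to KO4. Their summed signal, in multiples of an array's 75th percentile, was 7.43, 6.63, 6.33 and 10.74 on HZ1 to HZ4 and 12.1, 9.42, 8.47 and 7.33 on KO1 to KO4. Itgam, the most abundant, was the 1 marker that was lower. The part of these cells in the Tgfbr2 values was not tested, and in such bulk samples more cells of a type and more RNA per cell cannot be told apart. The Tgfbr2 promoter, chr9:116175314-116175613 on the minus strand, is shown for comparison with that of Tgfb2 and held CAGAC (capitals) at 1 place, starting at position -160. The other motifs were not in this window.
Tgfbr2: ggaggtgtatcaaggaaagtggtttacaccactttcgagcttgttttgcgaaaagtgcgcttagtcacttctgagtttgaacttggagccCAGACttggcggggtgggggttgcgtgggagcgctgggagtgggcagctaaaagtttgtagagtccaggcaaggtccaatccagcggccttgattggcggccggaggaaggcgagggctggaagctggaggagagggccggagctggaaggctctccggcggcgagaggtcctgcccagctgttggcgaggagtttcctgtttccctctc

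The type I receptor Tgfbr1 lay between 1.15 and 1.35 in HZ and between 1.25 and 1.52 in KO. The difference was 0.066 (standard error 0.093), and it was 0.012 without KO2 and 0.019 without HZ4. A dimmer probe gave 0.21 (standard error 0.11). Both probes overlapped between the groups and were higher on the KO-labelled array in 3 of 4 pairs with the same number.

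**Figure D2:**
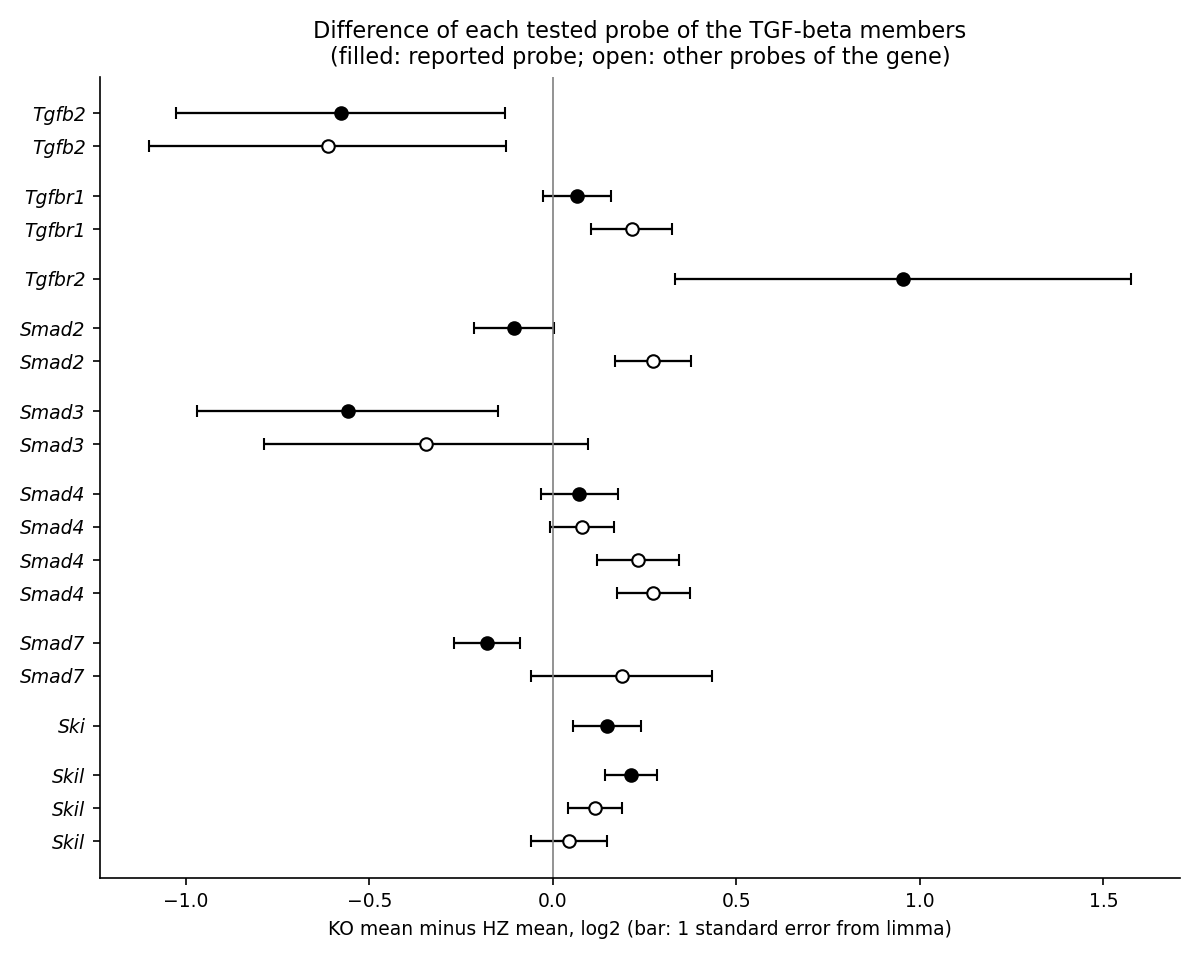
KO mean minus HZ mean in log2 for the 19 tested probes of 9 members, with bars of 1 standard error from limma. Filled circles are the reported probes and open circles the other probes of the gene; Smad2 and Smad7 have probes on both sides of 0, and the bars of Tgfb2, Tgfbr2 and Smad3 are the widest.

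Of the receptor-regulated Smads, which the type I receptor phosphorylates, Smad3 lay at -1.99, -0.42, -1.77 and -2.01 on HZ1 to HZ4 and at -1.96, -1.47, -2.17 and -2.82 on KO1 to KO4. As with Tgfb2, HZ2 was the highest array and KO4 the lowest, and the groups overlapped. The difference was -0.56 (standard error 0.41), -0.18 without HZ2 and -0.22 with normexp background correction. A dimmer Smad3 probe differed by -0.34 (standard error 0.44), with HZ2 again highest at -2.71 but KO3 lowest at -4.77.

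Across the 8 arrays Smad3 and Tgfb2 had a Pearson's r of 0.982 and a Spearman's rho of 0.786, which ranked Smad3 at place 34 among 14847 genes by its likeness to Tgfb2. Without HZ2 and KO4, the arrays farthest from the median of Tgfb2, r was 0.831. The genes most like Tgfb2 were Tagln3, a neuronal actin-binding protein (r 0.997, rho 0.905), Runx1t1, a transcriptional corepressor (0.997, 1), and Drd1, the dopamine D1 receptor (0.996, 0.976). Without the same 2 arrays r was 0.975, 0.979 and 0.977. The genes most like Smad3 were St8sia3, a sialyltransferase (0.995, 0.905), Tmem151b (0.994, 0.929) and Septin3, a septin of neurons (0.994, 0.976), with r of 0.958, 0.982 and 0.941 without HZ2 and KO4. Tagln3 lay at -1.05, 0.54, -0.72 and -1.08 on HZ1 to HZ4 and at -1.07, -0.48, -0.95 and -1.68 on KO1 to KO4. HZ2 was again the highest array and KO4 the lowest.

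Scores of 3 other marker lists also had HZ2 highest and KO4 lowest. The score of the 10 markers of Muller glia and astrocytes, all tested and led in abundance by Apoe, was -0.34, 0.69, 0.12 and -0.14 on HZ1 to HZ4 and -0.21, 0.41, -0.16 and -0.36 on KO1 to KO4. Their summed signal was 17.8, 33.6, 22.4 and 17.7 on HZ1 to HZ4 and 20.1, 29.7, 19.4 and 14.8 on KO1 to KO4. Of these markers 3 were higher and 7 lower on the KO-labelled arrays, and 1 was called, Gfap, an intermediate filament of glia. Gfap was higher by 0.82 (limma adjusted p = 0.334), with every KO-labelled array above every HZ-labelled array and KO4 the highest, against the order of the score. The call was kept in 10 of 17 alternatives and lost with normexp background correction, where the difference was 0.51. Of the 15 markers of amacrine, horizontal and ganglion cells, 6 were tested, 3 higher and 3 lower on the KO-labelled arrays, and 9 were not, among them Gad1, Calb1, Calb2, Rbpms and Thy1. Their score was -0.49, 0.52, 0.34 and 0.03 on HZ1 to HZ4 and -0.17, 0.43, 0.02 and -0.68 on KO1 to KO4, with Slc6a9, a glycine transporter, as the most abundant. Their summed signal lay between 60.9 and 71.7 on the HZ-labelled arrays and between 56.0 and 72.8 on those labelled KO. Of the 8 bipolar markers, led by Cabp5, 7 were lower on the KO-labelled arrays, and their score was highest on HZ2 (0.64) and lowest on KO4 (-0.35). By summed signal KO4 was again the lowest in these 3 lists, but among them HZ2 was highest only for Muller glia and astrocytes. The bipolar sum was 89.2 on HZ2 and 120.9 on HZ3, and the amacrine, horizontal and ganglion sum 61.2 on HZ2 and 72.8 on KO2. By score other lists had another order. The pericyte and fibroblast score was highest on KO4 (0.42) and the endothelial one on KO2 (0.49), with HZ2 at 0.39 and KO4 at 0.19. The cone score of KO4 was 0.50. The endothelial sum, however, was highest on HZ2 (3.34), and lowest on HZ1 (1.04). Kdr, the most abundant gene of that list, was highest on HZ2 (1.29) and lowest on KO4 (-1.92). The part of these cells in the Tgfb2 and Smad3 values was not tested.

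**Figure D3:**
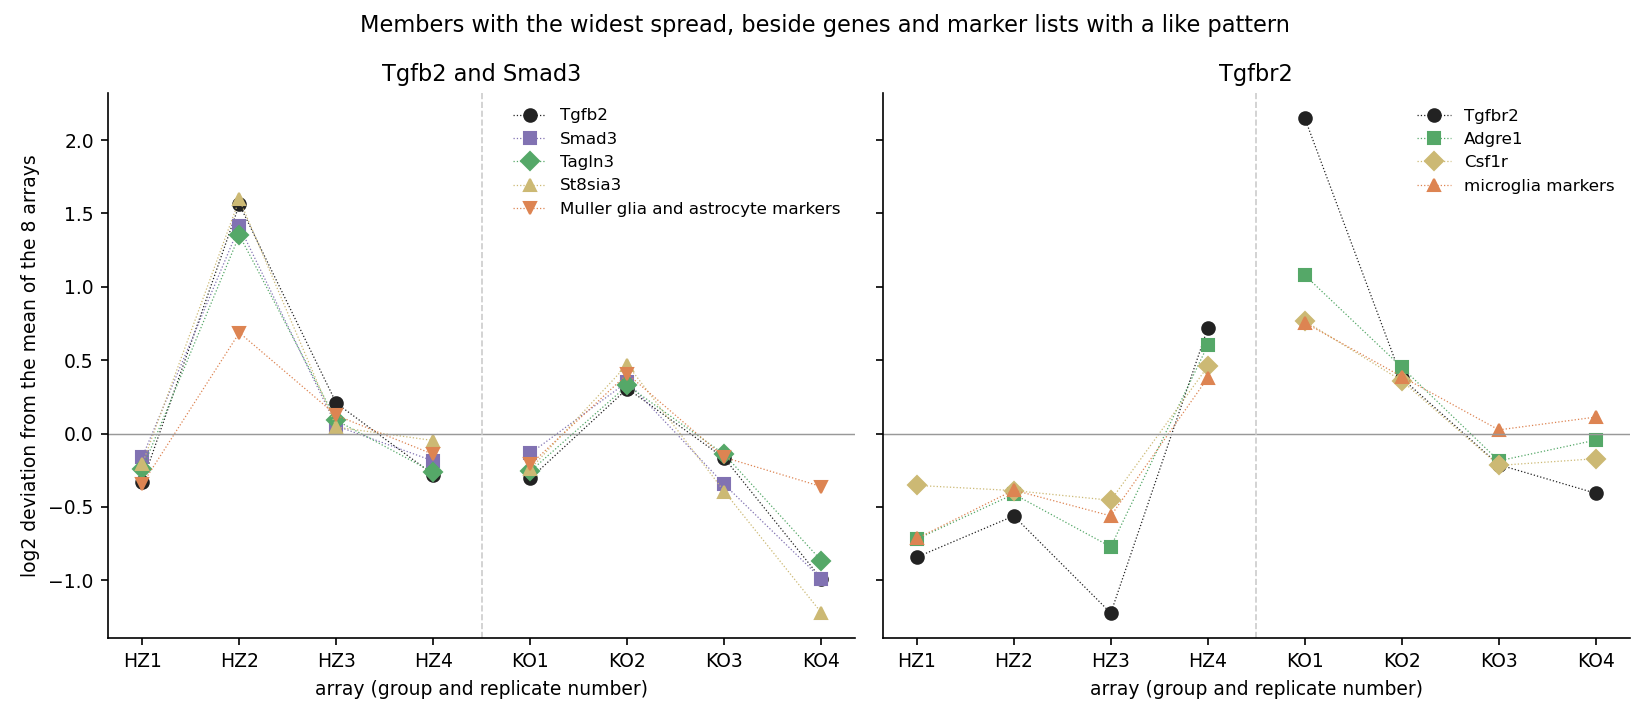
Log2 deviation from the mean of the 8 arrays for Tgfb2 and Smad3 with Tagln3, St8sia3 and the Muller glia and astrocyte score (left) and for Tgfbr2 with Adgre1, Csf1r and the microglia score (right); dotted lines only join the points of an item. HZ2 is highest and KO4 lowest on the left, while KO1 and HZ4 are highest for Tgfbr2 on the right.

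The Smad3 promoter, chr9:63757945-63758244 on the minus strand, is printed beside that of Tgfb2 because the genes ran together. It had no match to any of these motifs, so it carries no capitals. Its GC content was 67.7%, against 54.3% for the Tgfb2 window, 59% for that of Tgfbr2 and a median of 52.7% over all promoters in the table. Of the other members, 1 of the 2 Tgfbr1 promoters held CAGAC, while the windows of Tgfb1 and Ski, with GC contents of 77% and 85.3%, held none of the motifs. Among the promoters used of the wider pathway, the palindrome was found in that of 1 gene, Smad6.
Smad3: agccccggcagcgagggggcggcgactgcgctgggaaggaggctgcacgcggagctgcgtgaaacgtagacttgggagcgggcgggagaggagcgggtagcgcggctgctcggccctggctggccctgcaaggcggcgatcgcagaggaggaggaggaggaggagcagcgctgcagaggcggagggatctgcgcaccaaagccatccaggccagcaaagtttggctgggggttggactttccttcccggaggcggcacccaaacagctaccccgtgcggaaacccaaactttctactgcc

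Smad2 was read by probes of different RefSeq transcripts that disagreed. The brighter probe lay at 2.26, 2.10, 2.29 and 2.26 on HZ1 to HZ4 and at 2.21, 1.87, 2.28 and 2.13 on KO1 to KO4. It was lower on the KO-labelled array in each of the 4 pairs with the same number, while the groups overlapped, and the difference was -0.11 (standard error 0.11). The dimmer probe lay at 0.25, 0.52, 0.40 and 0.25 on HZ1 to HZ4 and at 0.45, 0.69, 0.64 and 0.73 on KO1 to KO4. It was higher on the KO-labelled array in 4 of 4 pairs, with a difference of 0.27 (standard error 0.10). The difference of Smad2 was -0.021 without KO2, 0.041 with normexp background correction and 0.084 as the mean of its probes, so it has no settled direction.

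Smad4, the partner that the receptor-regulated Smads share, was read by 4 probes. The reported one lay between 3.55 and 3.71 in HZ and between 3.53 and 3.90 in KO, and differed by 0.073 (standard error 0.11). This was 0.015 without KO2, 0.14 without KO4 and 0.0088 with quantile normalization. The other probes differed by 0.080, 0.23 and 0.27. All 4 were thus higher in mean on the KO-labelled arrays, and the probe with the last of these differences had groups that did not overlap, from -1.20 to -0.96 on HZ and from -0.91 to -0.60 on KO.

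The inhibitory Smad7, which targets the receptors for degradation, lay at -2.17, -2.15, -2.16 and -2.16 on HZ1 to HZ4 and at -2.28, -2.52, -2.36 and -2.20 on KO1 to KO4. Every KO-labelled array was below every HZ-labelled array, and the SD was 0.010 on HZ and 0.14 on KO (n = 4 each). The difference was -0.18 (standard error 0.089), and -0.088 with normexp background correction. A dimmer probe of the same transcript, well above background on 3 arrays of HZ and 4 of KO, differed by 0.19 (standard error 0.25) with overlapping groups. As the mean of the probes the difference was 0.0039, so the direction of Smad7 rests on the choice of probe.

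Skil, a corepressor that binds Smad complexes on DNA, had the narrowest spread of the members. The reported probe lay at 2.59, 2.54, 2.55 and 2.56 on HZ1 to HZ4 and at 2.73, 2.80, 2.73 and 2.82 on KO1 to KO4. Every KO-labelled array was above every HZ-labelled array, and each of the 4 pairs was higher on the KO-labelled array. The difference was 0.21 (standard error 0.071), which is under a fold of 1.2, and the SD within groups was 0.038, at percentile 0.357 of the tested genes. Probes of 2 other Skil transcripts differed by 0.12, with groups that did not overlap either, and by 0.043 with overlap. Leaving out 1 array at a time gave 0.19 to 0.23 for the reported probe.

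Ski, the corepressor related to Skil, lay at 1.72, 1.85, 1.93 and 1.83 on HZ1 to HZ4 and at 1.82, 2.09, 2.01 and 1.99 on KO1 to KO4. The groups overlapped through KO1, and the KO-labelled array was higher in 4 of 4 pairs. The difference was 0.15 (standard error 0.092), and 0.0063 with normexp background correction.

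The wider pathway was covered by a list of 106 other genes, of which 85 were tested. Of these, 50 were higher and 35 lower on the KO-labelled arrays, with a median difference of 0.035 against 0.029 over all tested genes. With a fold above 1.5 and an adjusted p below 0.5, limma called 4 of the 85 lower and 2 higher, beside 1.13% and 0.33% of all tested genes. Of these calls 1 lower (Tgfbr3) and 1 higher (E2f4) passed the background filter through 1 group only, so that nothing is read from their tests, and 3 lower and 1 higher are left. At a fold over 1.2 and an adjusted p under 0.05 it called 0, and 16 had an unadjusted p under 0.05, 9 of them higher, beside 9.3% of all tested genes. The groups did not overlap for 15 of the 85, beside 7.99%. The list was written when the lower Thbs1 was already known, so its counts are no independent support. Leaving out HZ1, HZ3, KO2, KO3 or KO4, 1 at a time, left 0 calls. Without KO1 the count was 1 lower (Thbs1) and 0 higher. Without HZ4 it was 0 lower and 2 higher, Ccn2 and E2f4, and without HZ2 it was the same 4 lower and 3 higher, with Ccn2 added. With normexp background correction Smad5 took the place of Tgfbr3 among 4 lower genes, and Fn1 was the 1 higher gene.

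Of the genes of ligands and latency, 10 of 15 were tested, 5 higher and 5 lower, and 2 were called lower and 1 higher. Thbs1, thrombospondin 1, which frees TGF-beta from its latent complex, lay at 0.14, -1.81, -0.52 and -0.55 on HZ1 to HZ4 and at -2.04, -3.19, -2.42 and -4.40 on KO1 to KO4. Every KO-labelled array was below every HZ-labelled array, and Thbs1 fell by 2.33 (standard error 0.57, limma adjusted p = 0.41). The call was lost in 7 of 17 alternatives, with a limma adjusted p of up to 0.803. A dimmer Thbs1 probe, well above background on 4 arrays of HZ and 1 of KO, overlapped between the groups, with KO1 at -4.98 and HZ2 at -5.02. Fbn1, fibrillin 1, whose microfibrils store the latent complex, lay at -1.73, -3.34, -2.62 and -2.32 on HZ1 to HZ4 and at -3.39, -4.02, -3.48 and -4.14 on KO1 to KO4. It fell by 1.26 (standard error 0.34, limma adjusted p = 0.438). With normexp background correction the difference was -0.81 and the call was kept, while 8 of 17 alternatives lost it. The groups were apart with this probe and overlapped with a dimmer one. Itgav, the integrin alpha V chain of the receptors that free TGF-beta, had the smallest p of these genes. It lay between -0.15 and 0.062 on HZ and between -0.54 and -0.37 on KO, and the difference of -0.47 (standard error 0.084, limma adjusted p = 0.328) was past the adjusted p but not the fold, with 0 calls in 17 alternatives.

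Nrros, which holds latent TGF-beta on microglia and macrophages, lay at 0.63, 0.72, 0.46 and -0.11 on HZ1 to HZ4 and at 1.11, 1.01, 1.04 and 1.25 on KO1 to KO4. Every KO-labelled array was above every HZ-labelled array. It rose by 0.68 (standard error 0.18, limma adjusted p = 0.434), and the call was lost in 9 of 17 alternatives. With normexp background correction (0.49) and without HZ4 (0.50) the difference was under the fold, while with no filter on dim probes and without HZ1, HZ3 or any 1 KO-labelled array the adjusted p was over the limit. HZ4 was the lowest array for Nrros, while the microglia score of HZ4 was the highest of the HZ-labelled arrays.

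Of the receptors and coreceptors 9 of 11 were tested, 7 higher and 2 lower, and 1 was called. Tgfbr3, the coreceptor betaglycan that presents TGF-beta2 to Tgfbr2, lay at -3.90, -5.55, -5.16 and -4.44 on HZ1 to HZ4 and at -6.28, -5.86, -6.11 and -5.76 on KO1 to KO4. It stood well above background on 4 arrays of HZ and 0 of KO, so it could pass the filter only by being brighter on HZ, and its call supports no difference. No size is given for its difference, since its KO values were not well above background. With normexp background correction the difference was under the fold. The call was lost in 10 of 16 alternatives, among them normexp and quantile normalization. With the latter the fold was still passed but the limma adjusted p was 0.501, in a range of 0.241 to 0.848 over the alternatives. Of the ligands and antagonists of the activin, GDF and BMP branches 11 of 18 were tested, 4 higher and 7 lower, with a median of -0.25. Bmp4, a BMP ligand of the dorsal retina, lay at -1.65, -3.64, -2.39 and -2.17 on HZ1 to HZ4 and at -3.39, -4.40, -3.62 and -4.41 on KO1 to KO4. It fell by 1.49 (standard error 0.43, limma adjusted p = 0.46), and HZ2 lay below KO1 and KO3. With normexp background correction the difference was -0.98 and the call was kept, while 8 of 17 alternatives lost it. A dimmer Bmp4 probe, well above background on 4 arrays of HZ and 2 of KO, had groups that did not overlap.

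Markers of the RPE, the pigment epithelium that adjoins the photoreceptors, had an order of arrays like that of Thbs1, Fbn1 and Bmp4. Of 15 RPE markers 12 were tested and 12 were lower on the KO-labelled arrays, while Lrat, Oca2 and Slc45a2 were not tested. Of the 12, 9 were called, beside 1.13% of all tested genes called lower. Over all probes 0 were called lower without HZ3, KO3 or KO4, and 1 without HZ1, so at most 1 of the 9 calls stood there. Their score was 1.44, 0.04, 0.79 and 0.74 on HZ1 to HZ4 and -0.16, -0.80, -0.46 and -1.59 on KO1 to KO4. Their summed signal was 42.4, 15.5, 26.8 and 24.0 on HZ1 to HZ4 and 14.8, 9.98, 12.9 and 7.80 on KO1 to KO4, with Dct as the most abundant. HZ1 was the highest array for the RPE score and for Thbs1, Fbn1, Tgfbr3 and Bmp4, and HZ2 the lowest of the HZ-labelled arrays for all of them. KO4 was the lowest array for the RPE score, Thbs1, Fbn1 and Bmp4. For Tgfbr3, whose KO values were not well above background, KO4 was the highest KO-labelled array (-5.76) and KO1 the lowest (-6.28). The part of RPE cells in these 4 genes was not tested.

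Of the other Smads, which serve the BMP branch, 3 of 4 were tested and 0 were called. Smad5 lay between 3.37 and 3.60 on the HZ-labelled arrays and at 3.15, 3.08, 3.33 and 2.19 on KO1 to KO4, with no overlap. Its difference was -0.51 (standard error 0.23, limma adjusted p = 0.622), and without KO4 it was -0.27. With normexp background correction it was called lower, at -0.64 (adjusted p = 0.466). A dimmer Smad5 probe differed by -0.075 with overlap. The inhibitory Smad6 differed by 0.14 (standard error 0.18, limma adjusted p = 0.835). Without KO2 this was 0.0071. All 21 regulators and adaptors of Smads were tested, 14 higher and 7 lower, and 0 were called. Those with the largest difference were Dab2, an endocytic adaptor, and Bambi, a decoy receptor (0.31). The Dab2 probe was well above background on 3 arrays of HZ and 1 of KO, so no size is given. Its difference came close to 0 without HZ4, so nothing is read from its place.

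Of the nuclear partners of Smads 15 of 16 were tested, 9 higher and 6 lower, and 1 was called. E2f4, which acts with Smad complexes in repressing Myc, lay at -6.05, -5.32, -5.51 and -6.84 on HZ1 to HZ4 and at -4.05, -4.80, -4.62 and -3.76 on KO1 to KO4. Its probe was well above background on 0 arrays of HZ and 4 of KO. As with Tgfbr3, the call supports no difference and no size is given. With normexp background correction the difference was under the fold and the call was lost. With quantile normalization the fold was passed but the limma adjusted p was 0.501, in a range of 0.169 to 0.733 over the alternatives. In all, 9 of 16 alternatives lost the call.

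Of 21 target genes of the pathway 16 were tested, 10 higher and 6 lower, with a median of 0.080, and 0 were called. Ccn2, a matricellular protein and a classic target, lay at -3.71, -3.26, -3.53 and -2.85 on HZ1 to HZ4 and at -3.05, -2.74, -2.62 and -2.13 on KO1 to KO4. It was higher by 0.70 (standard error 0.24, limma adjusted p = 0.53), past the fold but not the adjusted p, with overlap through HZ4. It was higher on the KO-labelled array in each of the 4 pairs with the same number, and with the replicate block it was called, at an adjusted p of 0.308. It was also called with quantile normalization (0.495), with the limit of all 8 arrays above background (0.468), with trend and robust eBayes (0.425), without HZ2 (0.326) and without HZ4 (0.472). Fn1, fibronectin, differed by 0.50 (standard error 0.29, limma adjusted p = 0.682). Without HZ1 this was 0.25, and with normexp background correction Fn1 was called at 0.61 (adjusted p = 0.481). Col1a1 and Col3a1, collagen genes, were among those not tested, since their probes did not reach the background limit on enough arrays.

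**Figure D4:**
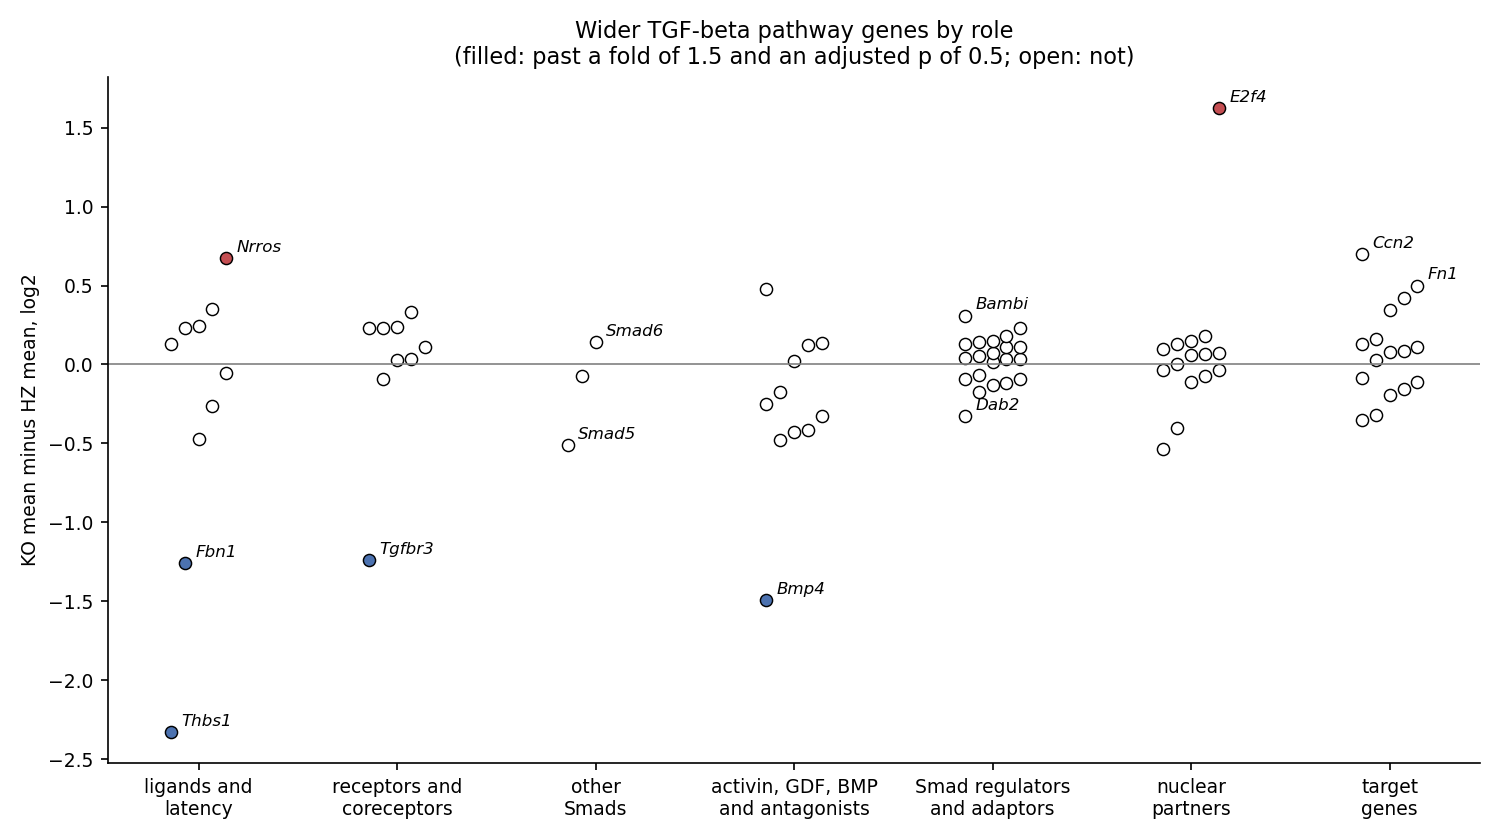
KO mean minus HZ mean in log2 for the 85 tested genes of the wider pathway, 1 circle a gene at its brightest tested probe, grouped by role; sideways shifts only part the circles. Filled circles were past the fold of 1.5 and the adjusted p of 0.5 in limma, blue for the 4 lower genes and red for the 2 higher ones, Nrros and E2f4; Tgfbr3 and E2f4 were above background in 1 group only.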

How the data were processed

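The authors hybridised RNA of photoreceptor cells to SurePrint G3 mouse arrays, and deposited background-subtracted intensity values made with Agilent Feature Extraction 10.7.1.1 (the submitters' processing notes). Log2 values that the authors deposited after a percentile shift, centred on each probe's median (column medians -0.065 to 0.20), served as an alternative. Here the intensities were put on the log2 scale, the 75th percentile of each array was subtracted, outlier spots were dropped and spots of a probe averaged. A test needed signal well above background on 4 or more arrays and 3 or more values in each group, which left 34303 probes. RefSeq accessions named 32994 of 56605 probes through the gene table of RefSeq (GRCm38.p6). Groups were compared, two-sided, with limma 3.58.1 in R 4.3.3 (files read with data.table, version 1.17.8), with Benjamini-Hochberg adjustment over all tested probes, and a self-test on simulated data was run. Plots used matplotlib 3.10.9. A gene is given by its brightest tested probe. Probes disagreed in sign for Smad2 and Smad7.

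Members and lists were chosen with earlier results of these data known. Named are the 10 members, in each role list the called genes or else the 2 with the largest difference, the 3 genes most like Tgfb2, Tgfbr2 and Smad3, and the most abundant gene of each marker list; Gfap, Tmem119, Rpe65, Itgav and the untested genes and markers named were added after their values were seen. Other alternatives were normexp (offset 50, on median signals), quantile normalization, other percentiles and filters, eBayes with trend and robust, the methods' t-test, the mean of a gene's probes and each array left out.

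The replicate number, which is also the slide column, was checked as a pairing. Deviations from group means correlated with r of 0.164 to 0.337 in the 4 pairs with the same number and of -0.34 to 0.118 between different numbers. Arrays with the same number were thus more alike, but a pairing of samples and the slide column cannot be told apart. The standard errors and calls reported come from the fit without a replicate block. With the replicate block 913 probes were lower and 254 higher. Nothing says that samples came from separate animals, so p-values measure the spread between these samples. The number of arrays limits the precision.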

Additional observations from a re-analysis of the deposited data

Results flagged for a closer look

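In 4 of 74 groups of 4 values, where 3.7 are expected by chance, the highest or lowest array lay far from the others of its group. Smad3 on HZ2 was -0.42, against -2.01 to -1.77 on HZ1, HZ3 and HZ4. Smad2 on HZ2 was 2.10, below the others at 2.26 to 2.29. The dimmer Smad7 probe on KO4 was -4.73, against -4.46 to -4.41 on KO1 to KO3. The dimmer Tgfb1 probe on HZ4 was -7.37, not well above background, where the others lay between -7.99 and -7.95.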

How the results depend on the processing

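At a fold over 1.5 and an adjusted p under 0.5, 0 members were called by limma as reported or under the 17 alternatives, of which the methods' t-test was 1, and in the fit as reported 1 member had an unadjusted p under 0.05. Over all probes limma called 279 lower and 78 higher. Counts were 178 lower and 102 higher with quantile normalization, and 32 lower and 9 higher with no filter on dim probes. They were 913 lower and 254 higher with the replicate block, which ended no call among the named genes and of the wider pathway added Ccn2. With each array left out, 0 to 1361 probes were lower and 0 to 373 higher, the most without HZ2, and of the wider pathway genes 0 to 4 were lower and 0 to 3 higher. With no filter on dim probes 0 wider pathway genes were lower and 0 higher, against 4 and 2, and with normexp 1 was higher, Fn1, as Nrros and E2f4 lost their calls, while Smad5 replaced Tgfbr3 among the lower. Of the called probes 78.2% were lower, against 63.6% with quantile normalization and 54.0% without HZ4. At a fold over 1.2 and an adjusted p under 0.05, where limma called 0 probes and 2803 had an unadjusted p under 0.05, normexp gave 17, trend and robust eBayes 3, and quantile normalization and the methods' t-test 2 each. The members' median was between -0.020, with no filter and Tgfb1 included, and 0.12, with the mean of a gene's probes. That of the wider pathway lay between 0.0042 and 0.063. The cause of these moves was not tested. For dim probes such as those of Tgfbr3 and E2f4 no size is given.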

Other observations

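The remaining marker lists gave these values. Of the 13 rod markers 12 were lower on the KO-labelled arrays, with a median difference of -0.13 and 0 called. All 8 cone markers, led in abundance by Gnb3, were higher, with a median of 0.26 and 0 called; their score was lowest on HZ1 (-1.03) and highest on HZ3 (0.63). Of 10 endothelial markers 6 were tested, 3 higher and 3 lower, with Kdr as the most abundant. Of 10 pericyte and fibroblast markers 5 were tested, 3 higher and 2 lower, with Vtn as the most abundant. Both tested red blood cell markers, led by Hba-a1, were higher, with a median of 1.61 and 0 called.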
